A study of Arabidopsis thaliana with 16 samples.

Results

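The comparison described here sets leaves of the Arabidopsis thaliana mutant atgsnor1-3 against leaves of the wild type Col-0, both taken 6 h after avrB. Its differences rest on 4 of the 16 arrays of the series, the 2 arrays labelled atgsnor1-3 and avrB and the 2 labelled Col-0 and avrB, chosen by their titles. The spread behind the standard errors and p-values, and the filter on brightness, drew on all 16 arrays, untreated atgsnor1-1 and sid2 included. All samples were leaf tissue of 4 week old plants, grown on compost under the same stated growth room conditions. Apart from that, untreated Col-0 and untreated atgsnor1-3, and the mutants atgsnor1-1 and sid2 after avrB, with 2 arrays each, are drawn on only where they show how the comparison differs. The labels give the age and tissue of every sample but name neither the bacterial strain nor the dose behind the word avrB, and the untreated leaves are not described as mock inoculated. Each mutant is represented by 1 line.

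GSNOR1 encodes S-nitrosoglutathione reductase, an enzyme that breaks down S-nitrosoglutathione, the main mobile store of nitric oxide in plant cells. The line atgsnor1-3 is known as an insertion mutant with little of this activity and raised S-nitrosothiols, while atgsnor1-1 is known as a line with raised activity, and in sid2 the isochorismate synthase behind most of the salicylic acid made upon infection is missing. AvrB is an effector protein of Pseudomonas syringae, and Col-0 recognises it through the resistance protein RPM1, which leads to a hypersensitive response with local cell death. The targeted genes themselves were not analysed here, which leaves the mutant labels without that check. The mesophyll, phloem and flower markers looked for had no probe set assigned to them here, the trichome, root and seed markers were too dim to be tested, and the only marker tested was FMA, a guard cell factor gene, at 70.5 and 66.3 units in Col-0 and 45.0 and 29.2 in atgsnor1-3, a log2 difference of -0.92 ± 0.31 that was not called.

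The ATH1 array gives 1 signal, in arbitrary linear units, for each of 22810 probe sets, and 13647 of these were bright enough to be tested. A gene was called when its adjusted p, from limma with Benjamini-Hochberg adjustment over all tested probe sets, was under 0.05 and its log2 difference was at least 1 in size. Below, a difference is always a log2 value of atgsnor1-3 minus Col-0 with its standard error, a value after ± is that error, and a level is the signal in each array, array 1 first. In bulk leaf RNA, fewer cells of a type and less RNA per cell cannot be told apart. Nothing in the labels says that the 2 arrays of a group hold separate plants. The p-values therefore measure just the spread between the samples at hand, and that spread may be technical.

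After avrB, 1784 probe sets were called between the genotypes, 13.1% of those tested. Of these, 589 were higher in atgsnor1-3 (4.32% of those tested) and 1195 were lower (8.76%), so 67.0% of the calls were reductions. The arrays of the 2 groups did not overlap in any of the 589 higher probe sets and in 1194 of the 1195 lower ones; over all tested probe sets, every atgsnor1-3 array lay above every Col-0 array in 32.6% and below in 33.5%. The median difference over all tested probe sets was -0.007. With no constant added before log2, reductions were also deeper. Their median size was 1.55 against 1.31 for the rises, and 108 reductions against 20 rises reached a size of 3. The filter on brightness used the mean over all arrays. A probe set dim in atgsnor1-3 after avrB alone could thus pass more readily than a probe set bright there alone. How far this and dim signals set the depth was not tested. In 326 of the lower probe sets (27.3%) the mean signal of atgsnor1-3 was under 20.23 units, the level below which probe sets were left out on average, and the size of a difference to so dim a signal is poorly fixed. Among the rises, 32 (5.43%) had a Col-0 mean under that level. The correlation across probe sets was 0.9602 between the 2 atgsnor1-3 arrays and 0.9676 between the 2 Col-0 arrays, and lay between 0.8572 and 0.8733 between arrays of the different genotypes; probe sets are not independent replicates.

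**Figure D1:**
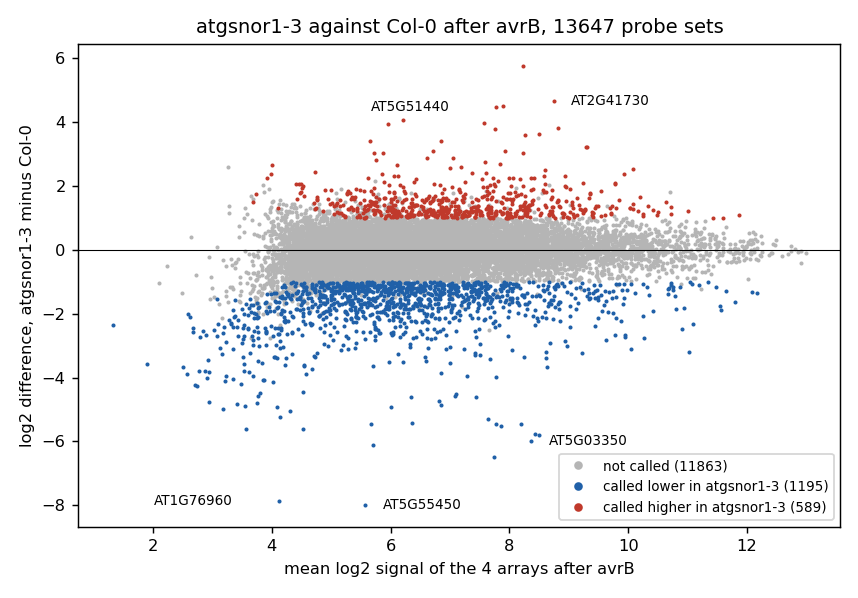
Log2 difference of atgsnor1-3 minus Col-0 after avrB against the mean log2 signal of the 4 arrays, 1 point per tested probe set, red for the 589 called higher and blue for the 1195 called lower. Reductions reach -7.99 (AT5G55450), and many of the deepest lie at low signal.

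Of the 589 probe sets called higher, 314 matched 1 locus, and the largest rise of all, 5.76, was in a probe set that did not and is not named. The steepest rises with a known gene were in genes of the mitochondrial dysfunction response, a set of nuclear genes known to be switched on when mitochondrial electron transport is disturbed. AT2G41730, a small protein of unknown function and a common marker of that response, read 90.1 and 81.0 units in the Col-0 arrays and 1952 and 2368 in the atgsnor1-3 arrays. Its difference was 4.65 ± 0.43, or 25.2-fold (limma adjusted p = 1.2e-06). Its probe set carries the suffix x_at, the array's mark for probes that may also match other transcripts. AT2G21640, known as UPOX and induced by oxidative stress, read 51.0 and 48.5 units in Col-0 and 1009 and 1289.5 in atgsnor1-3, a difference of 4.52 ± 0.39 (limma adjusted p = 6.96e-07). AT5G51440, a mitochondrial small heat shock protein, read 50.6 and 42.8 units in Col-0 and 994 and 1064 in atgsnor1-3, a difference of 4.47 ± 0.84 (limma adjusted p = 0.00107). In all of these both mutant arrays stood far above both wild type arrays. NDB2, an alternative NADH dehydrogenase on the outer face of the inner mitochondrial membrane, rose less, from 358 and 347 units to 931 and 936 (1.41 ± 0.22, limma adjusted p = 0.000255).

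The 16 listed mitochondrial stress genes had 6 probe sets assigned to them, and 5 of these were tested. Counts and medians of this and later lists describe only members with an assigned probe set that was bright enough. Many listed genes had none. Among those tested, 4 were called higher and none lower, beside 4.32% of all tested probe sets called higher, and the median was 4.47. This list, like the others below, was written with earlier results of these data known, so such shares are no independent evidence. The fifth, AT5G09570, a small twin-cysteine protein, read 23.7 and 14.2 units in Col-0 and 53.6 and 72.6 in atgsnor1-3, and its difference of 1.77 ± 0.73 did not pass (limma adjusted p = 0.0908). CYTC-2, a gene for the electron carrier cytochrome c that is outside the list and was singled out after its value was seen, rose from 292 and 212 units to 974 and 983 (1.98 ± 0.19, limma adjusted p = 1.95e-06). None of these genes was called between the genotypes in untreated leaves, where their differences ran from -2.44 for AT5G51440 to 1.00 for AT5G09570. The rises were therefore tested as a difference between states as well. The excess after avrB was 5.42 ± 0.61 for AT2G41730, 4.26 ± 0.56 for AT2G21640, 6.91 ± 1.19 for AT5G51440 and 1.94 ± 0.32 for NDB2, all called (limma adjusted p at most 0.000791). That of AT5G09570 was 0.77, too small to be called. With a pseudocount of 9.483 units added before log2, the untreated difference of AT5G51440 was -0.98 and its excess 5.19, still called.

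Several other genes that rose encode enzymes or a transporter. AT5G43450, an iron- and oxoglutarate-dependent dioxygenase, read 128 and 114 units in Col-0 and 1586 and 1782 in atgsnor1-3 (3.80 ± 0.23, limma adjusted p = 1.11e-08). AT5G16980, a close relative of alkenal reductase, read 11.4 and 28.7 units against 266 and 351 (4.08 ± 0.89, limma adjusted p = 0.00322). Its neighbour AER, the alkenal reductase that detoxifies products of lipid peroxidation, rose from 694 and 623 to 1641 and 1924 units (1.43 ± 0.27); near-identical copies in this gene cluster may share probes. The acetyltransferase-like neighbours AT2G32020 and AT2G32030 rose by 2.82 ± 0.50 and 2.21 ± 0.38, AT1G06830, of the glutaredoxin family, by 2.32 ± 0.21, and AT2G04070, a MATE-type efflux carrier, by 2.57 ± 0.32. MSRB3, a methionine sulfoxide reductase singled out after its value was seen, rose by 1.62 ± 0.29. In each of these genes both atgsnor1-3 arrays lay above both Col-0 arrays, and each was called by limma at an adjusted p of at most 0.00322.

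The remaining genes among the 15 largest rises were AT2G35480 (3.04 ± 0.46), AT5G14730 (3.03 ± 0.69), AT1G76600 (2.31 ± 0.28), AT3G52870, PUB19, BPC1 and BGLU45. PUB19, a U-box ubiquitin ligase, rested on a dim Col-0 signal of 6.69 and 6.02 units against 61.5 and 26.5, and its difference of 2.67 ± 0.61, or 1.68 with a pseudocount of 9.483 units, lost its call without array 1 of atgsnor1-3 (2.06, limma adjusted p = 0.065). BPC1, a GAGA-binding factor, read 2.32 and 20.6 units in Col-0 and 30.4 and 43.1 in atgsnor1-3, and its difference of 2.39 ± 0.72 was 1.28 with the pseudocount and 0.81 without array 1 of Col-0. The call of BPC1 was lost there, without either array of atgsnor1-3, and when just these groups were fitted. BGLU45, a beta-glucosidase, rose by 2.26 ± 0.48 and stood at the threshold without array 1 of atgsnor1-3 (1.97, limma adjusted p = 0.05). AT3G52870, a calmodulin-binding protein with an IQ motif, read 9.45 and 25.6 units in Col-0 and 176 and 153 in atgsnor1-3 (3.40 ± 0.41, limma adjusted p = 1.78e-05). It read 625 and 529 units in sid2 and 273 and 395 in atgsnor1-1 after avrB, so the Col-0 arrays were the low ones among all 4 genotypes.

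**Figure D2:**
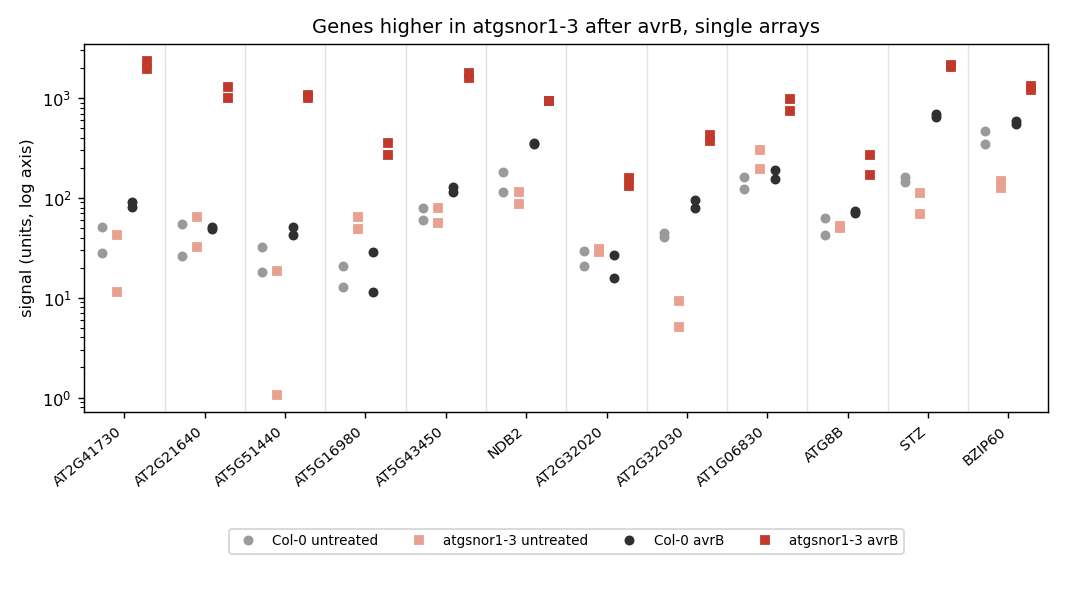
Signal of each array (log axis, units) for 12 genes that were higher in atgsnor1-3 after avrB, in 4 groups of 2 arrays: circles for Col-0 and squares for atgsnor1-3, light for untreated and dark for avrB. AT2G41730 stands at 1952 and 2368 units in atgsnor1-3 after avrB and at 90.1 or less in both Col-0 arrays after avrB, and BZIP60 is lower than in Col-0 in untreated leaves and higher after avrB.

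Of the 15 deepest reductions with a known gene, 9 were called lower in untreated leaves as well and 6 were not called there, beside 6.5% of all tested probe sets called lower in untreated leaves. AT5G55450, a lipid transfer protein, read 872 and 659.9 units in Col-0 and 3.15 and 2.84 in atgsnor1-3. Its difference was -7.99 ± 0.39 (limma adjusted p = 1.36e-09). AT1G76960, of unknown function, read 222 and 320 units in Col-0 and 0.979 and 1.33 in atgsnor1-3, a difference of -7.87 ± 0.61 (limma adjusted p = 1.85e-07). Both were near the bottom of the array's range in the mutant. AT5G03350, a legume lectin-like protein known to be induced by salicylic acid, read 2393 and 2834 units in Col-0 and 42.2 and 40.6 in atgsnor1-3, a difference of -5.97 ± 0.26 or 62.9-fold (limma adjusted p = 3.33e-10). Further down the order, AT1G13470, a protein with a domain of unknown function, read 554 and 618 units against 24.5 and 19.4 (-4.75 ± 0.49). In untreated leaves the differences of these genes were -7.10, -6.57, -4.42 and -5.46, in the same order, all called.

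Where the mutant signal is a few units, the size of a difference depends on how dim values are treated. With the pseudocount of 9.483 units, the differences were -5.94 for AT5G55450, -4.70 for AT1G76960, -5.68 for AT5G03350 and -4.25 for AT1G13470, all still called. AT5G59670, a receptor kinase with leucine-rich repeats, read 173 and 151 units in Col-0 but 15.5 and 0.703 in the 2 atgsnor1-3 arrays, so its difference of -5.61 ± 1.26 is loosely fixed: it was -3.42 with the pseudocount, and -3.38 and no longer called without array 2 of atgsnor1-3 (limma adjusted p = 0.079). Other genes among the 15 deepest reductions were AT5G42860 (-5.23 ± 0.27, or -3.24 with the pseudocount, and not called in untreated leaves at -0.92), AT5G52390 (-4.93 ± 0.64, or -3.04), AT1G19960 (-4.93 ± 0.26, or -4.09), the lectin receptor kinase gene AT4G11900 (-4.77 ± 0.42, or -2.17) and UGT72E1 (-4.78 ± 0.35), which glucosylates coniferaldehyde, a lignin precursor. UGT72E1 read 88.0 and 56.5 units in Col-0 and 2.35 and 2.80 in atgsnor1-3, and its difference was -2.73 with the pseudocount.

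The 36 listed genes of the salicylic and pipecolic acid pathways, which carry local and systemic immunity, had 6 probe sets assigned to them, and 5 of these were tested. All 5 were on the low side in atgsnor1-3 after avrB. Of 5 tested members 2 were called lower and none higher, beside 8.76% of all tested probe sets called lower, and the median was -1.23. AT5G52810, known as SARD4 and needed to make pipecolic acid, read 767 and 725 units in Col-0 and 219 and 244 in atgsnor1-3 (-1.69 ± 0.20, limma adjusted p = 1.51e-05). WRKY53, a factor of defence and senescence, read 325 and 344 units against 99.8 and 122 (-1.60 ± 0.27, limma adjusted p = 0.000431). UGT76B1, a glucosyltransferase that acts on salicylic acid, differed by -1.23 ± 0.87 and was not called (limma adjusted p = 0.342). SAG101, a partner of EDS1, and the glutaredoxin GRX480 differed by -0.93 ± 0.31 and -0.77 ± 0.29 and were not called (limma adjusted p = 0.0416 and 0.0636), the former because its size is under 1. In untreated leaves 4 of the 5 were called lower and the median was -2.99. For WRKY53 and GRX480 the gap narrowed after avrB, by 1.39 ± 0.38 and 3.29 ± 0.41 (limma adjusted p = 0.0181 and 4.98e-05). With the pseudocount these were 0.93 for WRKY53, not called, and 2.11 for GRX480, still called.

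Chitinases, which attack fungal cell walls, and small lipid transfer proteins followed. Of 6 tested chitinase-type genes 4 were called lower, beside 8.76% of all tested probe sets, and none higher, and the median was -1.74. CHI (AT2G43570) read 1476 and 1708 units in Col-0 and 268 and 349 in atgsnor1-3 (-2.38 ± 0.23, limma adjusted p = 1.65e-06), and AT4G01700 read 704 and 779 against 177 and 159 (-2.14 ± 0.24). AT1G02360 and AT2G43590, at -2.70 ± 0.67 and -1.34 ± 0.38, lost their calls without either Col-0 array or without array 1 of atgsnor1-3, which left 2 called, and AT2G43590 also without array 2 of atgsnor1-3. CHI was also called lower in untreated leaves, at -5.26, and its gap narrowed by 2.88 ± 0.32. Of the 3 tested genes of the AZI1 list, AT5G55450 and AT4G12490 (-2.23 ± 0.35) were called lower, and AT4G12500 (-1.59 ± 0.61) was not.

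Single genes of other defence routes also fell. AT3G13610, the feruloyl-CoA hydroxylase that makes scopoletin, read 173 and 199 units in Col-0 and 9.44 and 23.1 in atgsnor1-3, a difference of -3.65 ± 0.48 (limma adjusted p = 4.13e-05). CCR2, a cinnamoyl-CoA reductase of the same phenylpropanoid list, differed by 1.25 ± 0.50 and did not pass (limma adjusted p = 0.0829). Its difference in untreated leaves was -2.50 and called, but -0.96 and not called with the pseudocount. CYP71B23, a cytochrome P450, read 462 and 550 units against 64.0 and 66.2 (-2.95 ± 0.33). SGT1A, a co-chaperone of resistance proteins, fell from 1008 and 1002 to 471 and 458 units (-1.11 ± 0.20, limma adjusted p = 0.000654), while BIK1, a receptor-associated kinase, rose from 355 and 349 to 838 and 619 (1.03 ± 0.19, limma adjusted p = 0.000782), a call lost without array 1 of atgsnor1-3 (0.81). The 6 tested jasmonate genes had a median of 0.11. The defensin PDF1.2 was the only one called, lower, 16.7% beside 8.76% of all tested probe sets. PDF1.2 fell from 179 and 154 to 34.7 and 33 units (-2.30 ± 0.77, limma adjusted p = 0.0385). Its call was lost when any of the 4 arrays was left out, with quantile normalization, without a variance trend and without the filter on dim probe sets.

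Of 6 tested genes of protein folding in the endoplasmic reticulum, 3 were called lower and 1 higher, beside 8.76% and 4.32% of all tested probe sets, with a median of -0.62. CRT1b, a calreticulin, fell from 802 and 844 units in Col-0 to 211 and 168 in atgsnor1-3 (-2.13 ± 0.24, limma adjusted p = 1.08e-05). AT5G07340, a calnexin, fell by 1.92 ± 0.24 on the log2 scale and the J-domain co-chaperone ATERDJ3B by 1.33 ± 0.19. BZIP60, the factor that switches on folding genes in the unfolded protein response, rose from 544 and 594 to 1306 and 1194 units (1.14 ± 0.17, limma adjusted p = 0.000166). BZIP28 and BZIP17, membrane-held factors of that response, differed by 0.71 ± 0.23 and 0.08 ± 0.26 and were not called. All 4 called genes were also called in untreated leaves, where BZIP60 was lower in the mutant by 1.56 on the log2 scale. Its change of direction between the states, 2.70 ± 0.24, was called (limma adjusted p = 3.75e-06).

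Of 12 tested expansin and xyloglucan endotransglucosylase genes, whose products loosen walls, 6 were called lower, beside 8.76% of all tested probe sets, and none higher, with a median of -1.20. EXPB1 read 28.4 and 22.4 units in Col-0 and 1.35 and 3.93 in atgsnor1-3 (-3.45 ± 0.56, limma adjusted p = 0.00031), and EXPA8 read 70.9 and 52.6 against 2.92 and 11.5 (-3.40 ± 0.42, limma adjusted p = 2.37e-05). With the pseudocount they were at -1.53 and -2.13, still called. EXLB1 (-2.0 ± 0.22), XTH32 (-1.85 ± 0.20), EXPA16 (-1.65 ± 0.24) and EXPA4 (-1.44 ± 0.25) differed less. A pair of enzymes singled out after their values were seen, the endoglucanase GH9B8 (-4.06 ± 0.53, or -2.34 with the pseudocount) and the pectin methylesterase ATPMEPCRB, fell as well, the latter from 887 and 1075 units to 84.8 and 107 (-3.35 ± 0.30).

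Of 7 tested tubulin genes all lay below 0, at -0.24 to -1.02, and TUB5 alone was called, 14.3% beside 8.76% of all tested probe sets, at -1.02 ± 0.22, a call lost with quantile normalization, with the pseudocount, and without array 1 of Col-0 or array 2 of atgsnor1-3. Among 3 auxin response genes, HAT2, an auxin-induced homeobox gene of shade growth, fell from 57.5 and 45.1 units to 4.11 and 2.62 (-3.96 ± 0.33, limma adjusted p = 5.04e-07, or -2.24 with the pseudocount). WES1, which conjugates auxin to amino acids, read 41.2 and 37.8 units in Col-0 and 1.5 and 15.7 in atgsnor1-3 (-3.03 ± 0.79, or -1.56 with the pseudocount). It was not called without either Col-0 array (-2.96 and -3.09) or without array 1 of atgsnor1-3 (-1.33). IAA18, an auxin repressor, differed by 0.90 ± 0.23 and was not called. Serine carboxypeptidase-like genes, a family looked at after its values had been seen, had 8 of 15 called lower, none higher and a median of -1.22, with SCPL45 at -2.60 ± 0.54 (-1.60 with the pseudocount) and scpl46 at -2.42 ± 0.24. Of 12 trichome birefringence-like genes, which acetylate wall polymers, 3 were called lower, and of 9 beta-glucosidase genes 4 were called lower and 1, BGLU45, higher. All 3 families were chosen with values known, so their counts beside the 8.76% of all tested probe sets called lower are no independent evidence.

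Of the 4 tested genes of aliphatic glucosinolate synthesis, which makes sulfur-rich deterrents from methionine, 2 were called lower, beside 8.76% of all tested probe sets, and the median was -1.05. BCAT4, which starts the chain extension of methionine, read 415 and 505 units in Col-0 and 123 and 165 in atgsnor1-3 (-1.68 ± 0.21, limma adjusted p = 2.08e-05), and AT2G31790, a glucosyltransferase, fell by 1.37 ± 0.23 on the log2 scale. Neither was called in untreated leaves, at 0.31 and 0.34. MYC4, a factor that drives glucosinolate genes and was singled out after its value was seen, read 23.1 and 27.6 units against 2.19 and 4.15 (-3.07 ± 0.49, or -1.46 with the pseudocount).

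Genes of ribosome biogenesis and of RNA polymerase subunits were grouped after values had been seen, so their counts are no independent evidence. Of 16 tested genes of ribosome biogenesis, a list put together after the values of several of its members had been seen, 7 were called higher, beside 4.32% of all tested probe sets, and all 16 lay above 0, with a median of 1.07; with the pseudocount 4 were called. AT1G06720, related to the yeast ribosome assembly GTPase Bms1, rose from 26.0 and 31.3 to 93.7 and 98.4 units (1.75 ± 0.40, limma adjusted p = 0.00465). DIM1A, which methylates ribosomal RNA, rose by 1.33 ± 0.24, and NRPA2 and NRPA1, the large subunits of RNA polymerase I, by 1.18 ± 0.18 and 1.14 ± 0.35. The call of NRPA1 was lost without array 2 of Col-0 or either array of atgsnor1-3, with the pseudocount, and without the filter on dim probe sets. Of 10 tested RNA polymerase subunit genes 3 were called higher, and without array 2 of Col-0 or array 2 of atgsnor1-3 1 was.

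The 32 listed redox enzyme genes had 5 probe sets assigned to them, and all 5 were tested and none was called. All 5 lay above 0, with GR1, the cytosolic glutathione reductase, at 0.95 ± 0.17. Of 69 chloroplast-encoded genes 5 were called higher, 7.25% beside 4.32% of all tested probe sets, and none lower, with a median of 0.28. Leaving out either Col-0 array or array 2 of atgsnor1-3 left 3 called higher, and leaving out array 1 of atgsnor1-3 gave 3 called lower. None of 5 chlorophyll synthesis genes and none of 3 photorespiration genes was called. Of 10 nuclear photosystem genes LHCB4.3 alone was called lower (-1.09 ± 0.29), 10.0% and near the 8.76% of all tested probe sets. Its call was lost without either Col-0 array or array 2 of atgsnor1-3. Of 10 autophagy genes 1 was called higher, 10.0% beside 4.32% of all tested probe sets. That gene, ATG8B, encodes a ubiquitin-like protein of autophagosome membranes and rose from 71.0 and 73.5 to 169 and 272 units (1.57 ± 0.25, limma adjusted p = 0.000264). STZ, a zinc finger repressor of stress responses, rose from 689 and 640 to 2042 and 2152 units (1.66 ± 0.20, limma adjusted p = 1.47e-05).

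Of 6 calmodulin-like genes CML38 alone was called higher (2.07 ± 0.62), 16.7% beside 4.32% of all tested probe sets. Its call was lost when any of the 4 arrays was left out. Of 25 glycosyltransferase genes 2 were called higher and 2 lower, 8.0% each way and near the 4.32% and 8.76% of all tested probe sets; the calls of the higher ones were both lost without array 2 of either genotype. Beside the same 8.76%, of 11 cytochrome P450 genes 3 were called lower, of 7 glutathione transferases GSTU27 was (-2.14 ± 0.14), of 5 WRKY genes WRKY53 and WRKY47 were, and of 4 cold-response genes COR15A (-1.15 ± 0.20) and COR15B (-1.06 ± 0.24) were, COR15B falling under a size of 1 without array 2 of Col-0 (-0.96) or array 1 of atgsnor1-3 (-0.95). WRKY47, at -1.23 ± 0.36, lost its call when any of the 4 arrays was left out.

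**Figure D3:**
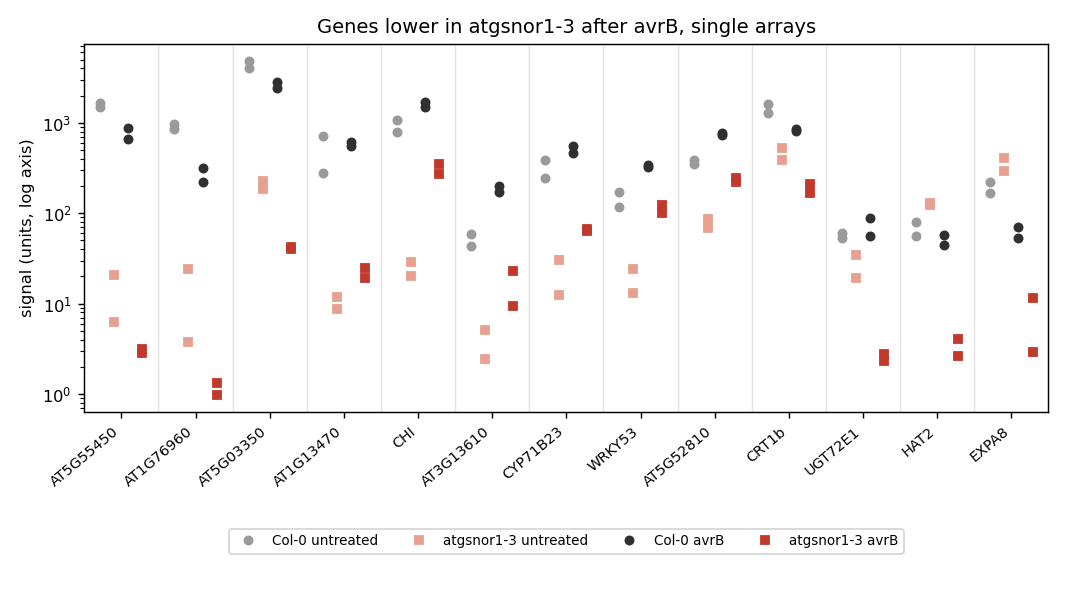
Signal of each array (log axis, units) for 13 genes that were lower in atgsnor1-3 after avrB, in the same 4 groups of 2 arrays. From AT5G55450 to CRT1b both genotypes are already apart in untreated leaves, while HAT2 and EXPA8 differ by 0.91 and 0.85 in untreated leaves, not called.

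**Figure D4:**
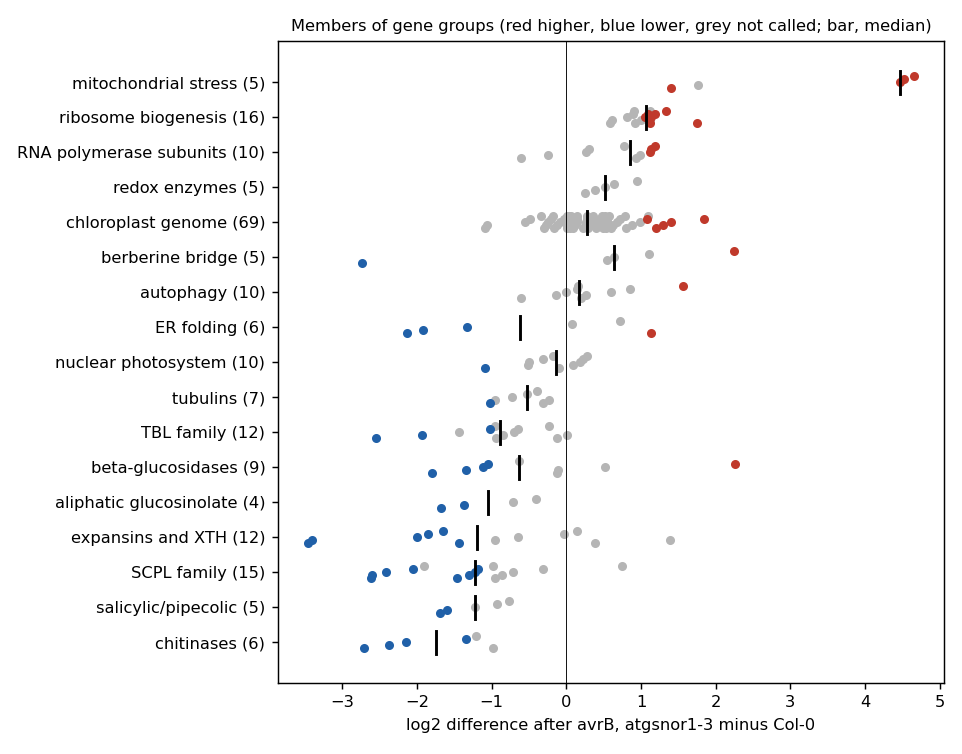
Log2 difference of atgsnor1-3 minus Col-0 after avrB for the tested members of 17 gene groups, with the number tested in brackets; red points were called higher, blue points lower, grey points not called, and black bars mark medians. The mitochondrial stress genes lie farthest to the right, with a median of 4.47, and the chitinases have the lowest median of the 17 drawn, -1.74; the auxin and AZI1 lists, with 3 tested genes each and medians of -3.03 and -2.23, are not drawn.

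The same genotypes also differed before treatment, on arrays that share nothing with the comparison after avrB. In untreated leaves 1199 probe sets were called (8.79% of those tested), 312 higher in atgsnor1-3 (2.29%) and 887 lower (6.5%). When just the compared groups were fitted, 782 were called, 219 higher and 563 lower. The 2 untreated arrays correlated at 0.9344 in Col-0 and 0.9196 in atgsnor1-3, below the 0.9563 to 0.9721 within every other group. The main fit pools the spread over all groups, tighter ones included, for the untreated and the between-state tests. Of the 1195 probe sets lower after avrB, 277 were lower in untreated leaves too, 23.2% of the former and 31.2% of the latter list, and 893 were not called there. Of the 589 higher after avrB, 41 were higher in untreated leaves, 6.96% of the former and 13.1% of the latter list, and 497 were not called there; the 41 were 27 when just the compared groups were fitted. Across the 13647 probe sets the differences of the 2 states had a Pearson correlation of 0.23, as a description; neither state's call shows that the states differ.

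That difference between states was tested itself, and 2055 probe sets were called (15.1%). In 926 (6.79%) the difference of atgsnor1-3 minus Col-0 was higher after avrB than in untreated leaves, and in 1129 (8.27%) it was lower. Among genes called after avrB, the largest positive values were those of AT5G51440 and AT2G41730, given above, AT2G32030 (4.83 ± 0.53) and AT1G26380 (4.73 ± 0.86). The largest negative values were -5.27 ± 0.65 for AT2G39870, which read 24.4 and 35 units in Col-0 and 1.79 and 1.29 in atgsnor1-3 after avrB (-4.27 ± 0.46, or -1.82 with the pseudocount), and -4.86 ± 0.47 for HAT2, which read 129 and 122 units in untreated atgsnor1-3 and 80.2 and 55.5 in untreated Col-0. With the pseudocount these were -2.61 and -3.06, both still called.

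Some genes were called in opposite directions in the 2 states, 51 probe sets higher after avrB and lower before it, and 25 the other way. The 51 are 8.66% of the 589 higher after avrB, beside 6.5% of all tested probe sets called lower in untreated leaves, and the 25 are 2.09% of the 1195 lower after avrB, beside 2.29% called higher, so both shares lie near the background. When just the compared groups were fitted, 18 of the first kind were called, and without array 2 of atgsnor1-3 after avrB 32 were; without array 1 of untreated Col-0 there were 38 of the second kind. AT1G26380, an oxidoreductase of the berberine bridge family that acts in indole defence compounds, read 100.5 and 136 units in Col-0 and 594 and 516 in atgsnor1-3 after avrB (2.24 ± 0.61), and 29.1 and 50.8 units against 2.72 and 17.3 in untreated leaves (-2.49 ± 0.61, or -1.42 with the pseudocount). Its call after avrB was lost without array 1 of Col-0 or either array of atgsnor1-3. Of 5 tested genes of its family, AT1G26380 was the one called higher, beside 4.32% of all tested probe sets. AT5G44400 was the one called lower (-2.73 ± 0.33), beside 8.76%. The acetyltransferase-like AT2G32030 rose from 94.4 and 79.7 units to 373 and 430.1 after avrB, against -2.62 ± 0.38 in untreated leaves (-1.65 with the pseudocount). The lectin receptor kinase B120 (2.00 ± 0.33 after avrB and -1.15 ± 0.33 before), the peptide gene AT3G10930, known as IDL7 (2.02 ± 0.46 and -1.99 ± 0.46), and the TIR-domain gene AT2G32140 (1.79 ± 0.53 and -2.72 ± 0.53) showed the same reversal, though AT2G32140 lost its call after avrB when any of the 4 arrays was left out, and AT3G10930 without array 2 of atgsnor1-3. With the pseudocount the untreated differences of B120 (-0.68) and AT3G10930 (-0.99) were no longer called, and that of AT2G32140 was -1.38.

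In the other direction AT3G62550, a protein of the universal stress protein family, read 443 units in both Col-0 arrays and 141 and 115 in atgsnor1-3 after avrB (-1.80 ± 0.14, limma adjusted p = 2.23e-07), but 1048 and 1129 units in untreated Col-0 and 2600.3 and 2846 in untreated atgsnor1-3 (1.32 ± 0.14). The subtilisin-like protease gene AT4G30020 read 111 and 92.5 units against 9.99 and 22.0 after avrB (-2.77 ± 0.31), and differed by 1.09 ± 0.31 in untreated leaves. AT2G26690, a nitrate transporter, differed by -1.31 ± 0.18 after avrB and by 1.06 ± 0.18 before. AT3G51330, an aspartic protease, was called lower in both states. It read 263 and 169.6 units against 47.3 and 43.4 after avrB (-2.22 ± 0.29) and 189.9 and 157 units against 2.2 and 1.41 in untreated leaves (-6.62 ± 0.29). Its untreated signal in the mutant was at the bottom of the range, and the narrowing of 4.40 ± 0.41 was 2.0 with the pseudocount, still called.

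**Figure D5:**
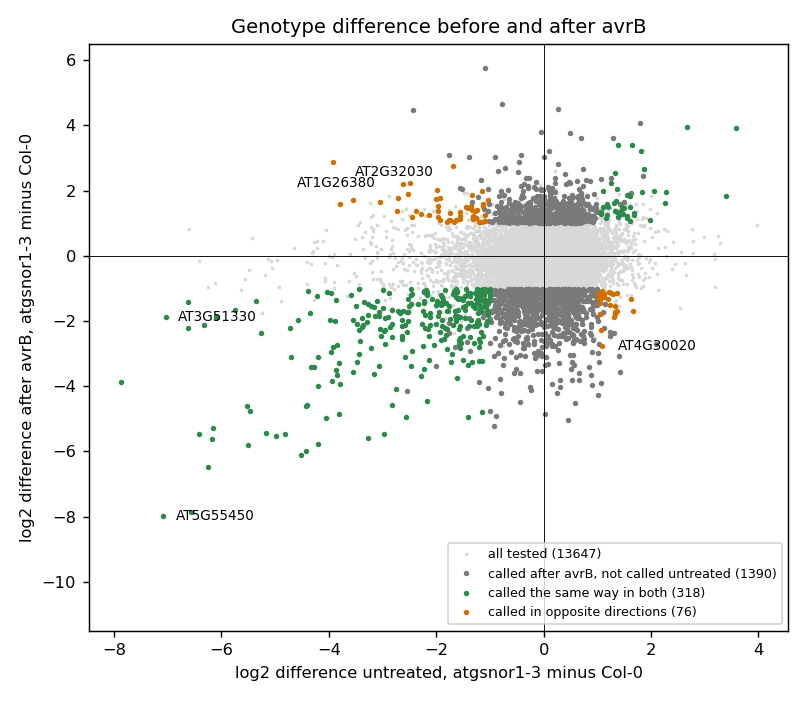
Log2 difference of atgsnor1-3 minus Col-0 after avrB against the same difference in untreated leaves, 1 point per tested probe set. Of the probe sets called after avrB, 1390 were not called in untreated leaves (dark grey), 318 were called the same way in both (green), and 76 in opposite directions (orange).

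Set against the other 2 mutants after avrB, atgsnor1-3 differed from sid2 in 1209 probe sets (8.86%) and from atgsnor1-1 in 1964 (14.4%); these comparisons use the same atgsnor1-3 arrays as the one with Col-0. Against Col-0, sid2 had 205 calls (1.5%) and atgsnor1-1 had 22 (0.161%), with the Col-0 arrays in common. Array 2 of sid2 after avrB carries both replicate numbers in its title, and its number was assumed. Both leading mitochondrial stress genes were lower in the other mutants: AT2G41730 read 128 and 136 units in sid2 and 77.3 and 74.5 in atgsnor1-1, and AT2G21640 read 48.2 and 63.9 units in sid2 and 24.3 and 36.1 in atgsnor1-1. Their differences from sid2 were 4.03 and 4.36 and from atgsnor1-1 4.82 and 5.27, all called (limma adjusted p at most 1.23e-05).

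Among the reductions the position of sid2 varied from gene to gene. AT5G03350 read 86.1 and 73.2 units in sid2, beside 42.2 and 40.6 in atgsnor1-3 (a difference of -0.94 that was not called), and 4468 and 3815 in atgsnor1-1. CHI read 342 and 352 units in sid2, beside 268 and 349 in atgsnor1-3 (-0.18, not called), and 2950.4 and 2294 in atgsnor1-1. AT5G55450 was intermediate in sid2, at 117 and 90 units, and called lower in atgsnor1-3 than there by 5.10 on the log2 scale. WRKY53, at 327 and 268 units, CRT1b, at 476 and 641, and HAT2, at 42.3 and 36.0, were not called between sid2 and Col-0 (-0.17, -0.57 and -0.38) and were called lower in atgsnor1-3 than in sid2 (-1.43, -1.56 and -3.57). STZ, at 1502 and 1600.2 units in sid2, was called higher there than in Col-0 (1.22), and its difference between atgsnor1-3 and sid2 was 0.44 and not called.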

How the data were processed

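Leaf RNA of 16 samples in 8 groups of 2 was hybridised to Affymetrix ATH1 arrays. The deposited values are intensity signals on a linear scale, which the submitters' processing notes credit to MAS5 and GCOS, with versions not given in the sources used here; each array's mean, with 2% of values trimmed, is 100.01 units. No read depth applies to arrays, and their number limits the precision.

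From the deposited intensity values log2 was taken with no pseudocount, 64 control probe sets were removed, and the dimmest 40% by mean over all arrays (under 20.23 units) were left out. A limma 3.58.1 model in R 4.3.3 with 8 group means and 8 residual degrees of freedom, with a variance trend, gave two-sided p-values, adjusted by Benjamini-Hochberg over 13647 probe sets. Of 22810 probe sets 13513 carried 1 gene in the platform annotation, 503 several and 8730 none, and 13436 matched a locus of the TAIR10.1 gene table; probe sets without 1 gene were tested but not named. Scripts were tested on simulated data.

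Names were drawn mainly from the 15 largest rises and falls among called probe sets with 1 gene whose 2 groups of arrays did not overlap. Up to 6 called members per list and direction were taken as well. All members of small lists, the 8 largest differences between states of each sign and the 6 largest opposite calls per direction were also eligible. The named genes counted below include all of these, though the text leaves some out. Among those left out is AT5G48570 of the heat shock list, called lower after avrB (-1.09 ± 0.29). The comparison, lists and rules were chosen with earlier results of these data known, and 5 families (serine carboxypeptidase-like, trichome birefringence-like, beta-glucosidase, RNA polymerase, ribosome biogenesis) after values were seen. Alternatives were quantile normalization, median centring, other filters, a pseudocount of 9.483 units (added before log2), no variance trend, a replicate block, only the compared groups, and leaving out each array. Same-numbered arrays of the avrB groups did not deviate together (correlation 0.015, and -0.153 to 0.105 over all pairs of groups), so the numbers were not taken as pairs.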

Additional observations from a re-analysis of the deposited data

Results flagged for a closer look

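Each gene here had a genotype difference (log2, atgsnor1-3 minus Col-0) that changed between untreated and avrB leaves by limma's test of that change; all were picked as the largest of their kind. The change was positive in AT5G51440 (6.91), AT2G41730 (5.42), AT2G32030 (4.83), AT1G26380 (4.73), AT1G05340 (4.72), AT2G32140 (4.51), AT5G14730 (4.42), AT3G51330 (4.40), AT3G10930 (4.01), B120 (3.16) and the O-methyltransferase gene AT1G33030 (2.76).

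It was negative in AT2G39870 (-5.27), HAT2 (-4.86), the zinc finger gene AT5G12440 (-4.79), AT2G25270 (-4.55), AT4G09890 (-4.47), AT4G01130 (-4.32), AT5G42860 (-4.31) and the leucine-rich repeat gene AT3G20820 (-4.29). Smaller negative changes, in genes called in opposite directions, were those of AT4G30020 (-3.86), AT1G27030 (-3.20), AT3G62550 (-3.12), AT5G45950 (-3.05), AT4G17470 (-2.89) and AT2G26690 (-2.37). With the pseudocount every one of these changes kept its direction and was still called, but those of AT3G51330 (2.0), AT2G39870 (-2.61), HAT2 (-3.06), AT5G12440 (-2.46), AT2G25270 (-2.09), AT4G09890 (-1.72), AT4G01130 (-2.06) and AT5G42860 (-2.48) were smaller by over 1.5 times.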

How the results depend on the processing

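The count of 1784 called after avrB ranged from 1240 (dimmest 60% left out, 9098 tested) to 1887 (only the compared groups), and reductions outnumbered rises in all 12 alternatives. Leaving out 1 array gave 1462 to 1810 after avrB, 1184 to 1373 untreated, and 1601 to 2286 for the difference between states. When just the compared groups were fitted, the untreated count of 1199 was 782; the cause was not tested. A fit with the replicate number as a block gave 1776, 1197 and 2041 calls, beside 1784, 1199 and 2055, and ended no call of a named gene. Of 124 named genes called after avrB, 88 kept their call in all 12 alternatives, 36 lost it in at least 1, and none changed direction. The probe sets higher in both states numbered 27 with only the compared groups, beside 41. Sizes for genes near the bottom of the range depend on the pseudocount, and signal over background limits them.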
